A study of Arabidopsis thaliana with 18 samples.

Results

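The 9 genes described here encode the clade A protein phosphatases 2C (PP2C) of Arabidopsis thaliana: ABI1, ABI2, HAB1, HAB2, PP2CA, AHG1, HAI1, HAI2 and HAI3. They were taken by their gene identifiers from a count table of 37336 genes, and all 9 had a row in it. The rule that names them uses no measured value. Of the 9, 7 had enough reads to be tested, and AHG1 and HAI3 did not.

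RNA was sequenced from whole rosettes harvested 21 days after sowing, and every library came from a pool of 6 to 10 plants. The first sequencing stage had 4 groups of 3 libraries: the accessions C24 and Ler (given in full as Ler-0), Ler carrying the NahG transgene, and a hybrid of C24 and Ler that is named C24 x Ler here. In the later stage 3 groups had 2 libraries each: C24B, a further set of C24 without the transgene, and the independent transgenic lines C24 NahG 2 and C24 NahG 3. The stage of C24B was taken from the statement that the C24 lines were sequenced later and analysed against it. NahG encodes salicylate hydroxylase, an enzyme from bacteria that removes salicylic acid. The sources used here give neither the promoter that drives it nor the number of lines behind Ler NahG.

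Clade A PP2Cs are the co-receptors of abscisic acid, the hormone of drought, cold and seed dormancy. Without the hormone they hold SnRK2 protein kinases inactive. When abscisic acid binds a PYR/PYL receptor, the receptor blocks the phosphatase, and the freed kinases phosphorylate bZIP transcription factors of the ABF/AREB family. Those factors bind the ABRE, a promoter element with the core ACGTG, in abscisic acid response genes, and many of the PP2C genes are themselves induced by the hormone, which closes a negative feedback loop. Their transcripts are therefore widely used as a readout of abscisic acid signalling.

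The promoter letters are shown for the 4 genes that were lower in the C24 NahG lines (HAI1, ABI1, HAB1 and ABI2) and for PP2CA, which was not called there. Each line below holds the 300 bases before the annotated gene start, 5′ to 3′ on the gene's own strand, from the RefSeq copy of the reference genome, which is of another accession than C24 or Ler. Capitals mark ACGTG on either strand (CACGT when read on the printed strand).
HAI1: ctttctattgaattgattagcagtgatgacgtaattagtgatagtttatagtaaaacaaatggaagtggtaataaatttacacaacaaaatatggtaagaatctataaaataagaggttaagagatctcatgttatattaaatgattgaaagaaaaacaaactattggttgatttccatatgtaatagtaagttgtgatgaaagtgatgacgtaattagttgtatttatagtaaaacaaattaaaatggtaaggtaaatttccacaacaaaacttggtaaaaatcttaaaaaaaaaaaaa
ABI1: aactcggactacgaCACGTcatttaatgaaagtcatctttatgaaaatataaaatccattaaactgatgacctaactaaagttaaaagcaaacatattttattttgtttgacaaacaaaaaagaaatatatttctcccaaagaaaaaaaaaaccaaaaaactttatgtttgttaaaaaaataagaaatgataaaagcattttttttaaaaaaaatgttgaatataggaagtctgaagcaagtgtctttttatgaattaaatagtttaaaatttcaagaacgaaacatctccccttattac
HAB1: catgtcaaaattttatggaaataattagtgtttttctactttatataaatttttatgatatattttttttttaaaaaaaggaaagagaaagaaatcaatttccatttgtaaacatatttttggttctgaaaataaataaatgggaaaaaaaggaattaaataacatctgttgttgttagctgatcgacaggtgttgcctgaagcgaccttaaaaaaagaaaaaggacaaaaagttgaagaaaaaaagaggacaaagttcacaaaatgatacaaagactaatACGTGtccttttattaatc
ABI2: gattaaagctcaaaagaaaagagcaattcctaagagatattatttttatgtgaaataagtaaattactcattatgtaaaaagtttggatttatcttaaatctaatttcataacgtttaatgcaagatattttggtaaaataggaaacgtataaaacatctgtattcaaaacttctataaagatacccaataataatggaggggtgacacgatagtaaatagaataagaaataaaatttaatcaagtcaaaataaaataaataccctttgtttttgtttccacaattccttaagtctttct
PP2CA: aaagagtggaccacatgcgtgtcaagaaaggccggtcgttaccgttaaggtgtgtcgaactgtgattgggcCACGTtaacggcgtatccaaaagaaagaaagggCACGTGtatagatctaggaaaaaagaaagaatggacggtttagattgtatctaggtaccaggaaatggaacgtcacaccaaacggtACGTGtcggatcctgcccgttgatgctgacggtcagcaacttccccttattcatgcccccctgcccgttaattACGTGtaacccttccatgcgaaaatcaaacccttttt
HAI1 lies on the minus strand with its window at chr5:23896940-23897239, ABI1 on the minus strand at chr4:13222377-13222676, and HAB1 on the plus strand at chr1:27389648-27389947. ABI2 lies on the plus strand with its window at chr5:23086822-23087121, and PP2CA on the minus strand at chr3:3585851-3586150.

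ACGTG was present in the window of 7 of the 9 genes, against 25.6% of 27443 protein-coding genes. PP2CA and HAI2 held 5 matches each. HAB2, AHG1 and HAI3 held 2 each, and ABI1 and HAB1 held 1 each. Of all protein-coding genes, 9.94% held 2 or more. The match in ABI1 began 286 bases before the gene start and that in HAB1 began 19 bases before it. HAI1 and ABI2 held none. Both were among the 4 genes lower in the C24 NahG lines, and PP2CA, not called there, was among the windows with most matches. Whether these letters go with the calls was not tested. CACGTG, the G-box, which holds ACGTG on both strands and so counts as 2 matches, was present in PP2CA and AHG1, against 7.09% of all genes. TGACG, a motif bound by TGA factors that can share letters with ACGTG, was present in 7 of 9 (21.3% of all genes). The W-box, searched as TTGACC or TTGACT, was present in 3 of 9 (32.3% of all genes). All motifs were searched on both strands, and a match is a description of the letters only.

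The first 12 libraries held 22446656 to 25706088 reads in genes and the later 6 held 28132721 to 32465711. Transcripts of PR1, a gene whose transcription needs salicylic acid, averaged 915 CPM in C24B against 0.471 and 0.339 in C24 NahG 2 and 3, and 12.7 in Ler against 1.29 in Ler NahG. CPM are read counts scaled to a fixed library size, here after TMM scaling, a correction for library composition. Library 2 of C24 NahG 3 stood apart in its share of mitochondrial gene reads (0.0706%, at most 0.00786% elsewhere). C24B library 1 stood apart in shoot apex markers, which summed to 3.08 CPM against 45.8 in C24B library 2. Library 1 of Ler (22.4 CPM, against 102 and 116) and library 2 of Ler NahG (21.4, against 70.3 and 114) were also low in these markers. Nothing in the sources says which pools shared a growth batch, and the p-values measure the spread between pools only.

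Per kilobase of exon, PP2CA, a phosphatase that acts in seeds, guard cells and leaves, had the highest mean in 6 of the 7 groups, from 39.7 CPM per kb in C24 NahG 2 to 50.3 in Ler NahG, although its libraries overlapped those of ABI1 in Ler NahG and C24 x Ler. In C24 it stood at 26.1 CPM per kb, and ABI1 came first at 30.1, but their libraries overlapped. ABI1 and HAB2 followed, at 15.8 to 37.2 and 19.7 to 23.8 CPM per kb. In the first stage and in C24B, ABI1 lay above HAB2 in every library. In both C24 NahG lines this order was the other way, with ABI1 at 17.7 and 15.8 CPM per kb and HAB2 at 19.7 and 20.1. HAB1 and ABI2 stood at 4.47 to 9.27 CPM per kb, HAI1 at 1.42 to 7.45 and HAI2 at 0.37 to 1.95. HAB1 and ABI2 did not separate in C24 x Ler, nor ABI2 and HAI1 in Ler, HAI1 did not separate from its neighbours HAB1 and ABI2 in C24B, and HAI1 and HAI2 overlapped in Ler NahG and C24 NahG 3. HAI3 and AHG1 came last in each group.

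**Figure D1:**
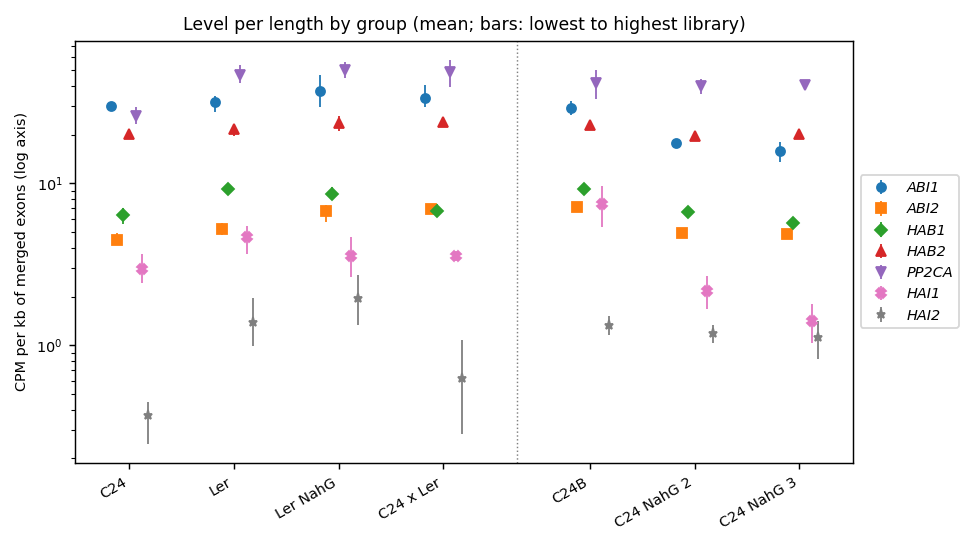
Level of the 7 tested genes per length, as the mean CPM per kb of merged exons in each group (log axis), with bars from the lowest to the highest library; the dotted line separates the sequencing stages. PP2CA leads in every group but C24, and ABI1 falls below HAB2 in the C24 NahG lines.

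ABI1 (AT4G26080, chr4:13219915-13222376, minus strand), the founding member, is a phosphatase whose dominant mutation makes plants insensitive to abscisic acid. In the later stage it stood at 69.9 and 57.5 CPM in C24B, at 37.8 and 38.9 in C24 NahG 2, and at 39.0 and 29.4 in C24 NahG 3. All 4 transgenic libraries lay below both controls. In the first stage it stood at 68.0, 63.6 and 64.4 CPM in C24, at 71.9, 75.1 and 59.6 in Ler, at 77.6, 101 and 63.8 in Ler NahG, and at 64.6, 66.6 and 87.6 in C24 x Ler. These 4 groups overlapped. ABI1 overlaps AT4G26070 on the other strand, and since the strand setting of the counting is not given in the sources used here, reads of that overlap could not be assigned with certainty.

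ABI2 (AT5G57050, chr5:23087122-23089631, plus strand), the closest relative of ABI1, stood at 17.1 and 15.5 CPM in C24B, 11.3 and 11.2 in C24 NahG 2, and 11.7 and 10.6 in C24 NahG 3. Again the 4 transgenic libraries lay below both controls. In the first stage its levels were 9.68, 9.67 and 11.3 CPM in C24, 11.8, 13.0 and 11.0 in Ler, 16.6, 16.7 and 13.2 in Ler NahG, and 16.1, 15.2 and 16.2 in C24 x Ler. Every hybrid library lay above every library of either parent, and every Ler NahG library lay above every Ler library.

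HAB1 (AT1G72770, chr1:27389948-27393327, plus strand), a phosphatase that acts with ABI1 in seeds and leaves, stood at 25.7 and 26.1 CPM in C24B, 18.8 and 18.3 in C24 NahG 2, and 15.7 and 16.3 in C24 NahG 3. The 3 later groups did not overlap. In the first stage it was at 19.8, 15.6 and 17.8 CPM in C24 and at 17.6, 18.04 and 20.9 in C24 x Ler, all below the 25.2, 27.5 and 24.5 of Ler. Ler NahG, at 22.2, 26.4 and 23.8 CPM, overlapped Ler. HAB2 (AT1G17550, chr1:6034270-6037398, plus strand), its closest relative, varied least of the tested genes, with an SD of 0.13 on the log2 scale over the 18 libraries after each stage was centred, against 0.27 for HAB1. HAB2 stood at 56.1, 49.8 and 53.5 CPM in C24, 59.2, 60.0 and 52.0 in Ler, 61.4, 68.9 and 55.7 in Ler NahG and 61.2, 64.3 and 63.2 in C24 x Ler. In the later stage it stood at 63.0 and 57.9 CPM in C24B, 55.4 and 48.5 in C24 NahG 2 and 56.5 and 49.6 in C24 NahG 3, so the transgenic libraries lay below the controls by a small margin. HAB1 and HAB2 shared an exact run of 33 bases in their transcripts, the longest between any pair of the 9 genes.

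PP2CA (AT3G11410, chr3:3583782-3585850, minus strand), also named AHG3, stood at 53.2, 45.7 and 42.1 CPM in C24, 97.3, 81.5 and 74.5 in Ler, 80.8, 100.5 and 90.2 in Ler NahG, and 104, 89.4 and 71.3 in C24 x Ler. The C24 libraries were the 3 lowest of the first stage. In the later stage it stood at 60.1 and 90.1 CPM in C24B, 78.9 and 64.1 in C24 NahG 2, and 72.1 and 73.5 in C24 NahG 3, and here the controls spanned all transgenic libraries. AHG1 (AT5G51760, chr5:21026805-21029188, plus strand), a phosphatase that acts mainly in seeds, had 0 or 1 read in each first-stage library and at most 6 later, in C24B library 1. Seed markers were likewise low, at a summed 0.0488 to 1.81 CPM over 9 genes, and none of them had enough reads to be tested.

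The HAI genes encode phosphatases named for their strong induction by abscisic acid. HAI1 (AT5G59220, chr5:23894404-23896939, minus strand), also known as SAG113 for its part in leaf senescence, stood at 11.1 and 19.9 CPM in C24B, 3.50 and 5.54 in C24 NahG 2, and 3.77 and 2.15 in C24 NahG 3. Both controls lay above all 4 transgenic libraries. First-stage levels were 7.59, 5.80 and 5.03 CPM in C24, 11.3, 10.2 and 7.58 in Ler, 6.96, 9.67 and 5.53 in Ler NahG, and 7.40, 6.87 and 7.99 in C24 x Ler. The C24 plants of the 2 stages, set side by side without a test, had 5.03 to 7.59 and 11.1 to 19.9 CPM of HAI1. This was not particular to HAI1. ABI2, HAB1, HAB2, PP2CA and HAI2 were also lower in every C24 library than in any C24B library, and ABI1 overlapped. The share of all genes with such a gap was not counted, so nothing particular to these genes can be read from it. CPM were scaled within each stage, and plant set and stage cannot be told apart. HAI2 (AT1G07430, chr1:2280746-2282828, minus strand) stood at 0.853, 0.470 and 0.791 CPM in C24, 1.88, 3.75 and 2.34 in Ler, 3.42, 5.18 and 2.53 in Ler NahG, and 0.970, 0.536 and 2.07 in C24 x Ler. C24 lay below Ler in every library, and the hybrid overlapped both. In the later stage HAI2 stood at 2.88 and 2.2 CPM in C24B, 2.55 and 1.97 in C24 NahG 2, and 1.58 and 2.71 in C24 NahG 3, which overlapped. HAI3 (AT2G29380, chr2:12608675-12610350, plus strand) had 0 reads in all C24 and C24 x Ler libraries, 0 to 4 in Ler, 2 to 7 in Ler NahG and 0 to 9 in the later stage. In a single library 3 reads are 0.0924 to 0.134 CPM, so levels of AHG1 and HAI3 were near or under what this depth can show.

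**Figure D2:**
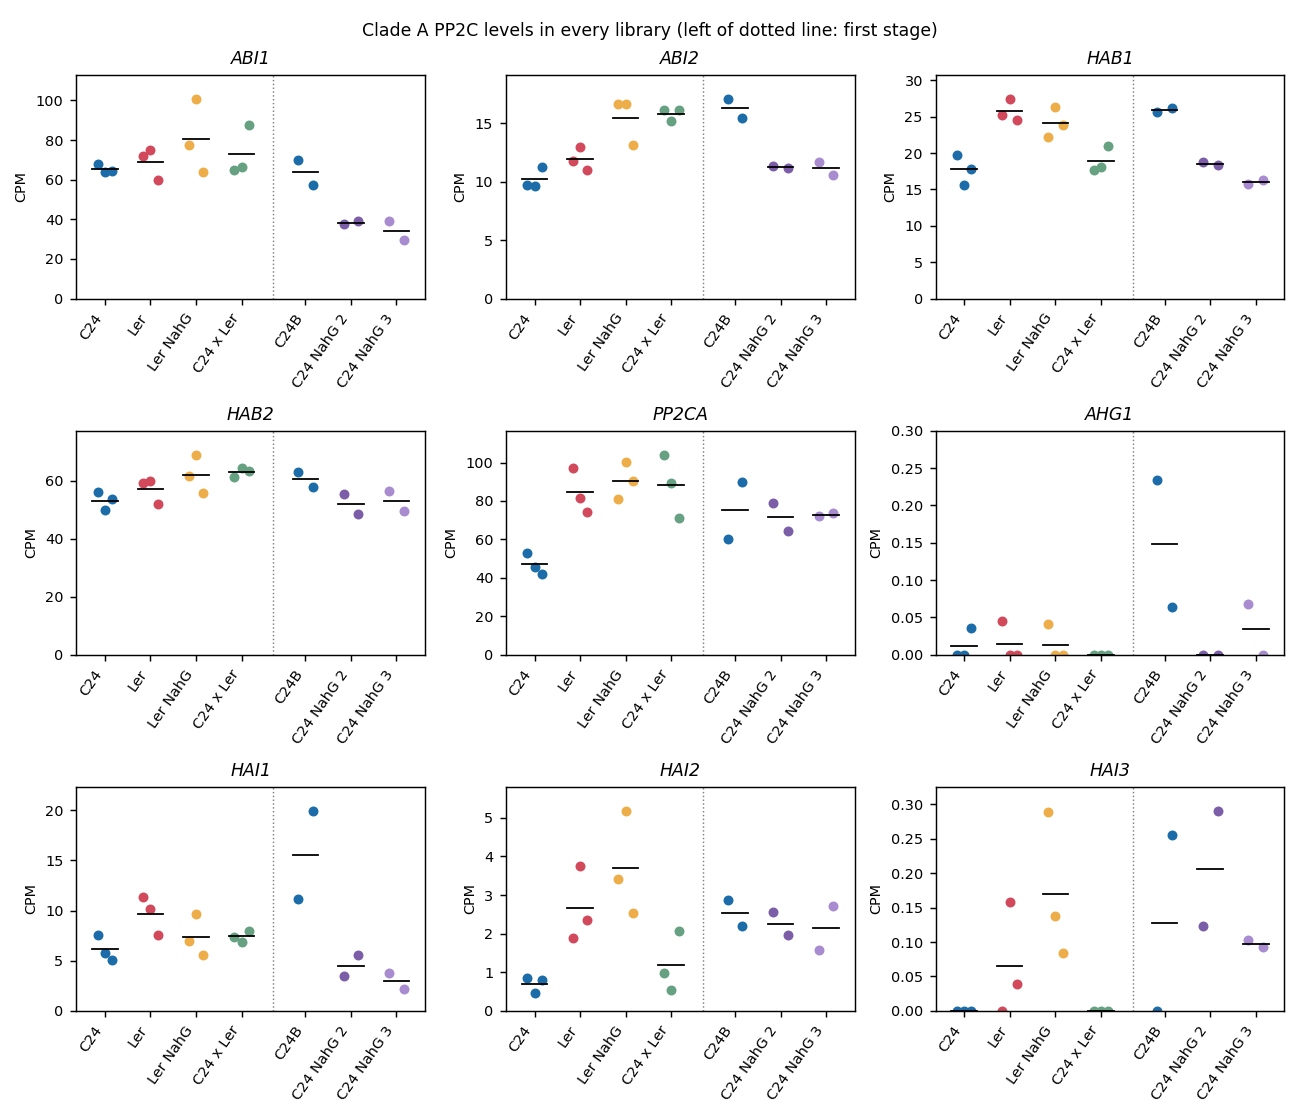
CPM of each of the 9 genes in all 18 libraries (points), with the group mean as a line, on axes that start at 0; groups left of the dotted line are of the first stage. ABI1, ABI2, HAB1 and HAI1 lie lower in both C24 NahG lines than in C24B, PP2CA and HAI2 are lowest in C24 of the first stage, and AHG1 and HAI3 stay at 0.30 CPM or less.

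The first comparison asked how the phosphatase genes changed with NahG in C24. HAI1, ABI1, HAB1 and ABI2, 4 of the 7 tested genes, fell in the C24 NahG lines against C24B, and 0 rose. Of all 20112 tested genes 10.3% were called lower and 13.2% in either direction. For HAI1 the log2 fold change was -2.09 (SE 0.31, adjusted p = 0.0040), which is 4.26-fold lower. It was -0.81 for ABI1 (SE 0.14, adjusted p = 0.0078), -0.59 for HAB1 (SE 0.10, adjusted p = 0.0073) and -0.54 for ABI2 (SE 0.12, adjusted p = 0.0236). For these 4 and HAB2, 5 of the 7 genes, all transgenic libraries lay below both controls, as for 21.5% of all genes. Each adjusted p here and below is from edgeR's quasi-likelihood F test with Benjamini-Hochberg adjustment over all genes tested. HAB2 was at -0.20 (adjusted p = 0.262), HAI2 at -0.20 (adjusted p = 0.694) and PP2CA at -0.06 (adjusted p = 0.848). The median of the 7 genes was -0.54, and that of all tested genes was -0.01. In these bulk rosettes, fewer cells of a type and less RNA per cell cannot be told apart.

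Taken line by line, C24 NahG 2 had 3 of the 7 genes lower, against 7.1% of all genes (8.21% in either direction). There HAI1 was at -1.78 (SE 0.38, adjusted p = 0.0280), ABI1 at -0.73 (SE 0.16, adjusted p = 0.0355) and HAB1 at -0.48 (SE 0.12, adjusted p = 0.0457), while ABI2 was at -0.54 (SE 0.14, adjusted p = 0.0608). C24 NahG 3 had 4 of the 7 lower, against 8.16% of all genes (10.3% in either direction). There HAI1 was at -2.397 (SE 0.39, adjusted p = 0.0082), ABI1 at -0.90 (SE 0.17, adjusted p = 0.0142), HAB1 at -0.69 (SE 0.12, adjusted p = 0.0093) and ABI2 at -0.55 (SE 0.14, adjusted p = 0.0498). The lines share C24B as their control, so they are not independent of each other. Between the lines 0 of the 7 genes and 0% of all 20112 were called by edgeR, with 590 genes (2.93%) at an unadjusted p under 0.05, and DESeq2 called 13 genes, of which 0 were members.

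The calls of a single line rested on few libraries. Without either library of C24 NahG 2, 0 members were called in that line, without C24B library 1 it was 1, and the compared groups alone or no filter left 2. Without library 1 of C24 NahG 3 it was 2 in that line, and without its library 2, which stood apart, it was 0. The call of ABI2 in C24 NahG 3 also ended with RLE scaling (adjusted p = 0.0538) and with the compared groups alone (adjusted p = 0.112). With both lines together, HAI1, ABI1 and HAB1 kept their calls without any 1 of the 6 libraries, and the largest adjusted p was 0.0250, 0.0399 and 0.0382 in turn. ABI2 lost its call without any library but C24B library 2, with adjusted p of 0.0556 to 0.114. Without library 2 of C24 NahG 3, the log2 fold change over both lines was -1.89 for HAI1, -0.70 for ABI1 and -0.58 for HAB1. Without C24B library 1 these were -2.43, -0.64 and -0.58. Guard cell markers summed to 115 to 134 CPM in C24B and 110 to 126 in the C24 NahG lines, and 0 of 8 were called. A large part of these sums was 1 marker, CYP86A2, at 57.3 to 65.2 CPM in C24B and 47.3 to 57.5 in the lines. Of 6 tested shoot apex markers 1, CUC2, rose, by 2.04 (SE 0.53, adjusted p = 0.0441), a call that ended without any library but C24B library 2 (adjusted p up to 0.14). All 6 had a log2 fold change above 0, with a median of 1.18. The part of apex tissue in these results was not tested.

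**Figure D3:**
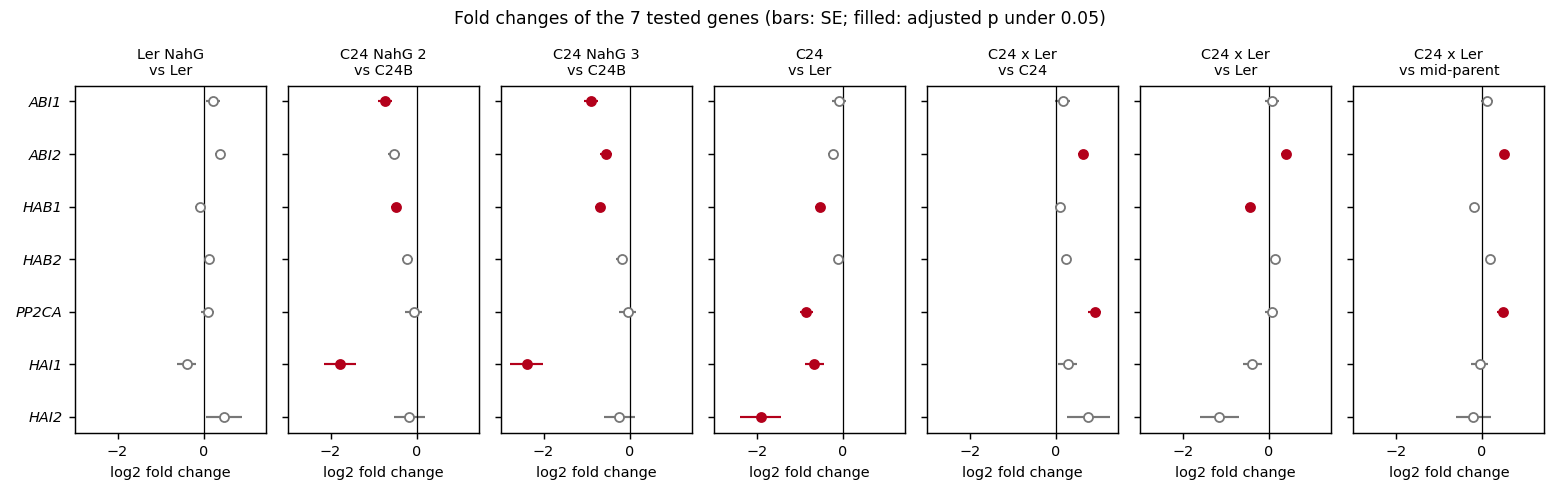
Log2 fold change of the 7 tested genes in 7 comparisons, with the SE as bars; filled points have an adjusted p under 0.05. The calls in the C24 NahG lines are all to the left of 0, and Ler NahG has none.

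In Ler, NahG gave 0 calls among the 7 genes, where 0.59% of 20325 tested genes were called in either direction. ABI2 was at a log2 fold change of 0.38 (SE 0.11, unadjusted p = 0.00597, adjusted p = 0.297), the 1 gene of the 7 with an unadjusted p under 0.05 (8.1% of all genes) and with every Ler NahG library above Ler (5.52% of all genes). HAI1 was at -0.39 (SE 0.22, adjusted p = 0.696), HAI2 at 0.48 (SE 0.42, adjusted p = 0.840) and ABI1 at 0.23 (SE 0.16, adjusted p = 0.783). HAB1, HAB2 and PP2CA lay between -0.09 and 0.12. DESeq2 also called 0 of the 7. Guard cell markers summed to 104 to 136 CPM in Ler NahG and 80.8 to 108 in Ler, with 0 of 8 called. CYP86A2 alone held 52.7 to 63.0 CPM in Ler NahG and 38.1 to 61.0 in Ler. Shoot apex markers summed to 21.4 to 114 CPM in Ler NahG and 22.4 to 116 in Ler, with 0 of 6 tested called, all 6 below 0 and a median of -0.31. The part of either was not tested. The count of members called was also 0 without library 1 of Ler and without library 2 of Ler NahG.

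The difference between the NahG effects of the accessions was tested in a fit of all 18 libraries, each effect taken within its own stage. It was called for 4 of the 7 genes, all more negative in C24, against 6.78% of 21061 genes more negative and 8.8% called in either direction. The C24 effect minus the Ler effect was -1.69 for HAI1 (SE 0.40, adjusted p = 0.0164), -1.04 for ABI1 (SE 0.24, adjusted p = 0.0149), -0.91 for ABI2 (SE 0.16, adjusted p = 0.0023) and -0.49 for HAB1 (SE 0.14, adjusted p = 0.0426). The effects had opposite signs for ABI2 (-0.54 in C24 and 0.38 in Ler) and ABI1 (-0.81 and 0.23), with neither Ler value called on its own, and the same sign for HAB1 (-0.59 and -0.09) and HAI1 (-2.09 and -0.39). Accession and sequencing stage cannot be told apart in this difference. With the compared groups alone in the fit, 1 of the 4 calls, that of ABI2, was kept, and the other 3 were no longer under the threshold (adjusted p up to 0.0630). Without C24B library 1, ABI1 was at -0.89 (adjusted p = 0.103), and without C24B library 2, HAI1 was at -1.21 (adjusted p = 0.0650). The call of HAB1 also ended under RLE scaling, without the filter on low counts and without most single libraries (adjusted p up to 0.138).

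The next comparison was between the parent accessions. The C24 plants of the first stage had lower levels than Ler of HAI2, PP2CA, HAI1 and HAB1, and 0 of the 7 genes were higher. Of all 20325 genes 42.5% were called, 19.8% lower. HAI2 was lower by a log2 difference of -1.91 (SE 0.47, adjusted p = 0.0062), PP2CA by -0.85 (SE 0.15, adjusted p = 0.000824) and HAB1 by -0.54 (SE 0.11, adjusted p = 0.0019), each without overlap between the groups, which held for 3 of the 7 genes and 26.4% of all genes. HAI1 was at -0.66 (SE 0.22, adjusted p = 0.0303), and the highest C24 library just exceeded the lowest Ler library. Its call ended without C24 library 2 or 3 or Ler library 1 or 2, with adjusted p of 0.0756 to 0.116. Without Ler library 1, which was low in shoot apex markers, HAI2 was at -2.11, PP2CA at -0.73 and HAB1 at -0.55, each still called (adjusted p up to 0.00519). ABI1, ABI2 and HAB2 were at -0.08, -0.22 and -0.10 and were not called. The 7 genes had a median of -0.54, and all genes had one of -0.01. The C24B plants, set beside Ler without a test, overlapped Ler for HAI2, PP2CA, HAI1 and HAB1. HAI2 was at 2.2 to 2.88 CPM in C24B and 1.88 to 3.75 in Ler, and HAB1 at 25.7 to 26.1 and 24.5 to 27.5. HAI1 was at 11.1 to 19.9 CPM in C24B and 7.58 to 11.3 in Ler, and PP2CA at 60.1 to 90.1 and 74.5 to 97.3. CPM were scaled within each stage, and plant set and stage cannot be told apart. Of the guard cell markers 1 of 8 was higher and 2 were lower in C24, and of the shoot apex markers 2 of 6 tested were lower, and their part was not tested.

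In the hybrid, ABI2 and PP2CA were higher than in C24, ABI2 was also higher than in Ler, and HAB1 was lower than in Ler. Against C24, 2 of the 7 genes were higher, beside 17.2% of all genes (36.6% in either direction). The log2 difference was 0.91 for PP2CA (SE 0.15, adjusted p = 0.000917) and 0.63 for ABI2 (SE 0.11, adjusted p = 0.0014). HAB2 was at 0.24 (SE 0.09, adjusted p = 0.0588), and DESeq2 called it (adjusted p = 0.0451). These 3 genes lay above C24 in every hybrid library, as did 23.9% of all genes. Against Ler, 1 of 7 was higher (15.8% of all genes) and 1 was lower (14.4% of all genes; 30.3% in either direction). ABI2 was higher by 0.41 (SE 0.11, adjusted p = 0.0185), and the call ended without hybrid library 1 (adjusted p = 0.0647) or Ler library 3 (adjusted p = 0.0773). HAB1 was lower, at -0.45 (SE 0.11, adjusted p = 0.0100). HAI2 was at -1.15 (SE 0.45, adjusted p = 0.0764) and passed the threshold without hybrid library 3 (-1.82, adjusted p = 0.0159) or Ler library 1 (-1.34, adjusted p = 0.0463).

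Against the mid-parent, the mean of the parents on the log scale, 2 of the 7 genes were higher, beside 15.5% of all genes (27.1% in either direction). ABI2 was higher by 0.52 (SE 0.10, adjusted p = 0.0034) and PP2CA by 0.49 (SE 0.13, adjusted p = 0.0166). The call of PP2CA ended without hybrid library 1 (adjusted p = 0.117) or 2 (adjusted p = 0.0610). These 3 hybrid comparisons share the hybrid libraries. Summed over the 9 genes, the hybrid held 261 to 272 CPM, C24 191 to 215, Ler 232 to 279 and Ler NahG 255 to 328. Guard cell markers, of a cell type in which abscisic acid closes stomata, summed to 168 to 194 CPM in the hybrid, 106 to 124 in C24 and 80.8 to 108 in Ler. A large part of each sum was CYP86A2 alone, at 98.8 to 119 CPM in the hybrid, 56.1 to 69.5 in C24 and 38.1 to 61.0 in Ler. Of the 8 markers, 5 were called higher against C24 and 4 against Ler. GORK, a potassium channel gene of guard cells, went the other way and was called lower against Ler, at -1.42 (SE 0.35, adjusted p = 0.0112). GORK was also low in libraries low in shoot apex markers, Ler library 1 (4.02 CPM, against 12.4 and 11.5) and C24B library 1 (2.26, against 7.46). In Ler NahG library 2, also low in these markers, it stood at 8.34 CPM, against 8.90 and 13.8. Shoot apex markers summed to 0.664 to 2.59 CPM in the hybrid, 41.0 to 44.4 in C24 and 22.4 to 116 in Ler, with 4 and 6 of 6 tested called lower. The part of these cells in the hybrid's values was not tested.

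Other genes of the pathway were counted in lists written from general knowledge. Their counts stand beside shares over all genes of 42.5% called between C24 and Ler (19.8% lower), 36.6% between the hybrid and C24, 0.59% in Ler NahG and 13.2% in the C24 NahG lines (10.3% lower). Of the PYR/PYL receptors 9 of 14 were tested. Compared with Ler, C24 had more PYL4 (0.97, SE 0.32, adjusted p = 0.0290) and less PYL7 (-0.43, SE 0.14, adjusted p = 0.0272), and the hybrid had more PYL7 than C24 (0.41, SE 0.14, adjusted p = 0.0379). Each of these calls ended without C24 library 1 or 2, among others, and 0 of the 9 were called in Ler NahG or in the C24 NahG lines, by edgeR or DESeq2, with 0 and 1 at an unadjusted p under 0.05 (edgeR). The difference of NahG effects was called for PYL9, at -0.62 (SE 0.15, adjusted p = 0.0163), a call that ended without C24B library 1 (adjusted p = 0.145) and under 2 of 17 alternatives in all. Of 10 SnRK2 kinases, C24 had 1 higher and 3 lower than Ler, a share near the 42.5% of all genes, among them SNRK2.6 (OST1), the kinase of stomatal closure, at -0.72 (SE 0.13, adjusted p = 0.000860). SNRK2.6 was also higher in the hybrid than in C24, by 0.67 (SE 0.13, adjusted p = 0.0025). In the C24 NahG lines 1 kinase, SNRK2.5, rose, by 1.28 (SE 0.29, adjusted p = 0.0254), a call that ended without any 1 of the 4 transgenic libraries.

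Of 11 tested transcription factors of the pathway, 2 fell in the C24 NahG lines and 0 rose, where 10.3% of all genes fell. GBF3, a G-box binding bZIP factor, fell by 1.23 (SE 0.20, adjusted p = 0.0066), from 11.1 ± 2.37 CPM (SD, n = 2) in C24B to 4.70 ± 0.917 and 4.67 ± 0.790. NAP, a senescence factor known to bind the HAI1 promoter, fell by 2.54 (SE 0.65, adjusted p = 0.0408), from 0.662 and 3.86 CPM in C24B to 0.274 to 0.461 in the lines, and its call ended without any library but C24B library 1 (adjusted p up to 0.484). Between the parents, C24 had 2 of the 11 higher and 1 lower than Ler, where 42.5% of all genes were called. GBF3 was higher in C24 by 1.52 (SE 0.19, adjusted p = 4.39e-05) and ABI5, a bZIP factor of seeds, was lower, at -1.48 (SE 0.29, adjusted p = 0.0017).

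Of 7 tested genes of abscisic acid synthesis, C24 had 4 lower and 1 higher than Ler, where 19.8% of all genes were lower. NCED3, the rate-limiting enzyme under drought, was at 2.73 ± 0.968 CPM (SD, n = 3) in C24 and 6.43 ± 1.09 (SD, n = 3) in Ler, a log2 difference of -1.24 (SE 0.30, adjusted p = 0.0052). In the C24 NahG lines 1 of the 7 fell, AAO3, the last enzyme of the pathway, by 0.53 (SE 0.11, adjusted p = 0.0220), and its call ended without library 2 of C24 NahG 2 or either library of C24 NahG 3 (adjusted p up to 0.0979). Among 8 tested genes of breakdown, release and transport, ABCG40, an importer of abscisic acid, was higher in C24 than in Ler by 4.14 (SE 0.37, adjusted p = 3.44e-06). ABCG40 fell by 3.07 in the C24 NahG lines (SE 0.13, adjusted p = 9.37e-06), from 52.2 ± 8.06 CPM (SD, n = 2) to 8.53 ± 0.666 and 4.51 ± 0.275. BGLU18, a glucosidase that releases abscisic acid from its conjugate, rose there by 1.397 (SE 0.19, adjusted p = 0.0027). The count in that list was 1 higher and 2 lower.

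Of 22 tested abscisic acid response genes, C24 had 14 lower and 1 higher than Ler, where 19.8% of all genes were lower and 42.5% were called. KIN2, a cold and abscisic acid response gene, was at -3.81 (SE 0.16, adjusted p = 8.21e-09), RD29A at -3.65 (SE 0.25, adjusted p = 4.23e-07) and COR15A at -3.17 (SE 0.16, adjusted p = 3.3e-08). In the hybrid 11 of the 22 were higher and 2 lower than in C24, where 17.2% of all genes were higher and 36.6% were called. Against Ler, 2 of the 22 were higher and 9 lower in the hybrid, where 15.8% of all genes were higher and 14.4% lower. Against C24, COR15A was at 3.51 (SE 0.16, adjusted p = 6.96e-08) and KIN2 at 3.23 (SE 0.15, adjusted p = 1.06e-07). KIN2, RD29A and COR15A also respond to cold without abscisic acid.

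In Ler NahG 0 of the 22 response genes were called, and 0 were called by DESeq2. By edgeR 4 were at an unadjusted p under 0.05, as were 8.1% of all genes. Of the 22, 18 were above 0 and 4 below, with a median of 0.23, beside 0.0025 for all genes. In the C24 NahG lines together 5 fell and 1, COR15A, rose, by 0.64 (SE 0.13, adjusted p = 0.0152), where 10.3% of all genes fell. The call of COR15A ended without library 1 of C24 NahG 2 or library 1 of C24 NahG 3 (adjusted p up to 0.0543). MAPKKK18, a kinase gene induced by abscisic acid, fell by 2.18 (SE 0.35, adjusted p = 0.0059), from 6.02 ± 1.63 CPM (SD, n = 2) to 1.32 ± 0.645 and 1.34 ± 0.494. NAC019, a transcription factor gene, was at -2.43 (SE 0.45, adjusted p = 0.0119), and its relative RD26 was at -1.13 (SE 0.21, adjusted p = 0.0126). Both calls ended without library 1 of C24 NahG 2 or library 2 of C24 NahG 3, and that of RD26 also without library 1 of C24 NahG 3 (adjusted p up to 0.0551 and 0.0705). RD29A and KIN2 were at 0.24 (SE 0.23, adjusted p = 0.521) and 0.30 (SE 0.10, adjusted p = 0.0896) there. The median of the 22 was -0.06 in the C24 NahG lines, beside -0.54 for the 7 phosphatase genes, and -1.01 between the parents. Over the 6 fits that each left out 1 library, the response genes called in the C24 NahG lines ranged from 1 to 5 lower and from 0 to 6 higher, with 1 lower without library 1 of C24 NahG 2 or library 2 of C24 NahG 3, and 6 higher without C24B library 2.

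**Figure D4:**
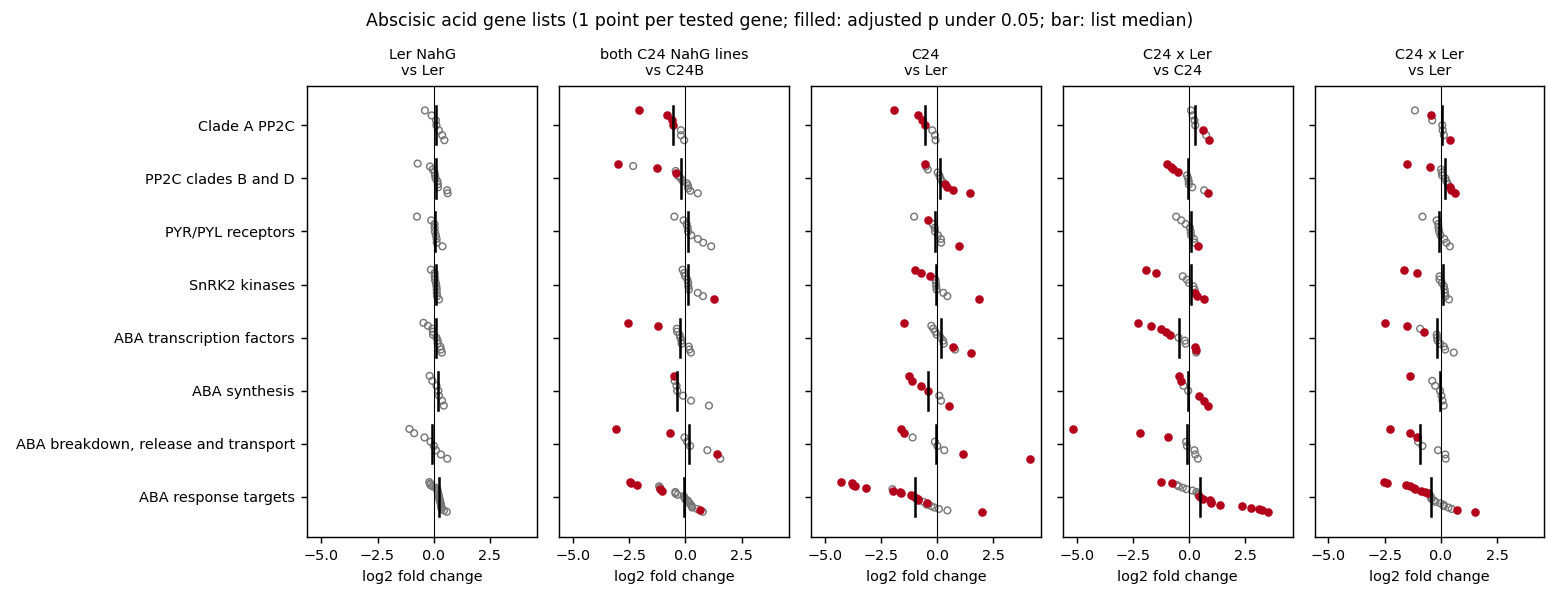
Log2 fold change of each tested gene of 8 lists in 5 comparisons (points; filled where the adjusted p is under 0.05), with the median of each list as a bar. Response genes spread widely between C24 and Ler and in the hybrid, and the clade A PP2C median is at -0.54 both in the C24 NahG lines and between the parents.

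Phosphatases of clades B and D, which do not act as abscisic acid co-receptors, were counted beside the clade A genes. Of 13 tested in the later stage, 3 fell in the C24 NahG lines and 0 rose, where 10.3% of all genes fell. AT5G06750, of clade D, fell by 1.27 (SE 0.12, adjusted p = 0.000434), from 22.1 ± 1.34 CPM (SD, n = 2) to 9.13 ± 0.355 and 9.12 ± 0.932. AP2C2 (AT1G07160), of clade B, fell by 2.99 (SE 0.54, adjusted p = 0.0104), a call that ended without C24B library 2 or C24 NahG 2 library 2. The third, AT3G51370, listed as PP2C.D6, fell by 0.40 (SE 0.10, adjusted p = 0.0363), and its call ended without any library but C24B library 2 (adjusted p up to 0.197). Of 11 tested in the first stage, C24 had 4 higher and 1 lower than Ler, a share near the 42.5% of all genes called, and AT5G06750 was again among them, higher by 1.45 (SE 0.10, adjusted p = 4.93e-07).

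For each phosphatase gene called in any comparison, the genes with the most alike pattern were found among 17300 genes, as the smallest root mean square difference of log2 CPM over the 18 libraries after each stage was centred. HAI1 was most like DREB2A, a drought and heat response factor, with a difference of 0.27 against an SD of 0.68 for HAI1 itself, followed by CRK41 (0.35) and AOX1A (0.35), an oxidase of mitochondria. ABI1 was nearest to ftsh7 (0.14), CAT1 (0.15) and AT1G15060 (0.15), with an SD of its own of 0.30. ABI2 was nearest to SLP1 (0.12), AT4G01650 (0.13) and RD21A (0.14), and HAB1 to AT2G24690 (0.12), AT1G26620 (0.12) and SNL1 (0.13). PP2CA was nearest to BBX27 (0.13), CYP71B12 (0.15) and AT1G26920 (0.15). HAI2 was nearest to AT1G70640 (0.38), SRF4 (0.40) and NCED4 (0.40), with an SD of its own of 0.86. No other clade A gene was among the 3 nearest of any of these 6.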

How the data were processed

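RNA from rosettes was made into libraries with an Illumina TruSeq kit, per the labels' protocols. The deposited values are the authors' raw read counts per gene, in 1 table with a column for each of 18 libraries. STAR 2.5.3, TAIR10 and DESeq2 are named in the submitters' processing notes, and the counting settings and strand are not given in the sources used here. The table also held 5 rows that name no gene (2.76 to 10.3% unmapped reads, 1.37 to 2.42% at several places, 0.256 to 0.523% in no gene, 3.47 to 4.85% in more than 1 gene), which were kept out of library sizes and tests.

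Counts were tested with edgeR 4.0.16 in R 4.3.3: TMM scaling, the filterByExpr filter by group, the quasi-likelihood F test and Benjamini-Hochberg adjustment over all genes, with calls at an adjusted p under 0.05. Separate fits held the 12 first-stage libraries, the 6 later libraries, and all 18 for the difference of NahG effects. SE is the absolute log2 fold change over the square root of F. Log levels used a prior count of 2, and floors cover counting error only. The code was tested on simulated data. Libraries of a group differed from each other beyond sampling noise (chi-square per gene of 5.74 to 62.3), and each counted as 1 sample. Groups came from the labels. DESeq2 1.42.0, RLE size factors, no filter, the compared groups alone, a replicate block and leaving out each library were the alternatives.

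The 9 genes and the 11 lists (127 genes, including markers of guard cells, seeds and shoot apex) were chosen with earlier results of these data known. By the naming rule the 9 genes are given throughout, and of every other list at most the 3 genes with the lowest adjusted p under 0.05 in a comparison, besides PR1, the 3 most alike genes of each called member (mean log2 CPM of at least 0), and values in other comparisons of genes so named. COR15A and CUC2 in the C24 NahG lines, GORK in the hybrid, and the counts of the other lists under each alternative, were chosen after seeing the data. Gene models, promoter letters and coordinates came from the RefSeq copy of the genome, TAIR10.1. Reads that members of a gene family could share were not resolved.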

Additional observations from a re-analysis of the deposited data

Results flagged for a closer look

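The effect of NahG differed between the accessions for 4 of the 7 tested clade A PP2C genes, by the interaction test over all 18 libraries with edgeR's quasi-likelihood F test. Of all 21061 genes tested so, 6.78% were more negative in C24 and 8.8% were called in either direction. The log2 effect in C24 minus that in Ler was -1.04 for ABI1 (adjusted p = 0.0149), -0.91 for ABI2 (adjusted p = 0.0023), -0.49 for HAB1 (adjusted p = 0.0426) and -1.69 for HAI1 (adjusted p = 0.0164). Among the 12 fits that each left out 1 library the value for ABI1 lay between -1.19 and -0.84, that for ABI2 between -1.02 and -0.84, that for HAB1 between -0.55 and -0.41, and that for HAI1 between -2.05 and -1.21. The direction held in these fits, but the calls were less stable. With the compared groups alone in the fit, only the call of ABI2 was kept. That of HAB1 also ended under RLE scaling and without the filter on low counts. The NahG plants of C24 were sequenced in the later stage and those of Ler in the first, so accession and stage cannot be told apart.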

How the results depend on the processing

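Of 10 counts of called members, those of C24 against Ler (4, without single libraries 3 to 4), C24 x Ler against C24 (2), both C24 NahG lines against C24B (4, 3 to 4), Ler NahG against Ler (0) and line 3 against line 2 (0) stayed within 1.5 times under every alternative run. Leaving out 1 library gave 1 to 3 for C24 x Ler against Ler, 1 to 2 against the mid-parent, 0 to 3 for C24 NahG 2, 0 to 4 for C24 NahG 3 and 2 to 4 for the difference of NahG effects, and the compared groups alone gave 1 for that difference. Of the single-gene values under all alternatives, 701 kept their direction and side of the threshold, 51 no longer passed it, 6 newly passed it and 26 changed sign, each of the latter not called and each on leaving out 1 library. Their ranges were -0.0693 to 0.15 (ABI1) and -0.0785 to 0.20 (PP2CA) for C24 x Ler against Ler; -0.0312 to 0.19 (ABI1), -0.13 to 0.0376 (HAI1) and -0.86 to 0.1449 (HAI2) against the mid-parent; -0.35 to 0.0566 (HAI2) and -0.31 to 0.26 (PP2CA) for C24 NahG 2; -0.66 to 0.0926 (HAI2) and -0.28 to 0.28 (PP2CA) for C24 NahG 3. They were -0.41 to 0.0224 (HAI2) and -0.30 to 0.27 (PP2CA) for both lines, -0.41 to 0.17 (PP2CA) for the difference of effects, and for line 3 against line 2 -0.39 to 0.0316 (ABI1), -0.0864 to 0.0676 (ABI2), -0.0693 to 0.13 (HAB2), -0.51 to 0.26 (HAI2) and -0.12 to 0.19 (PP2CA). The cause was not tested. In the first stage, libraries with the same replicate number did not deviate together throughout (correlations of -0.205 to 0.487 over 18 pairs). In the later stage all 6 such pairs were above 0 (0.0464 to 0.135). With 2 libraries a group, pairs of different numbers only repeat these values with the sign reversed (-0.135 to -0.0464). The later stage therefore cannot decide whether the numbers mark pairs. They were not read as pairs in the main fits. With the replicate block, C24 NahG 2 had 4 members called and the difference of effects had 3, and the other counts were as given above. Depth limits AHG1 and HAI3, and 2 libraries a group limit the later stage.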
